A study of Mus musculus with 36 samples.

Results

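The contractile and YAP/SRF target genes described here are 7 genes, Acta2, Tagln, Cnn1, Myl9, Thbs1, Ankrd1 and Amotl2, taken by symbol from the 54842 genes of the count table. RNA was sequenced from 36 libraries of mouse embryonic fibroblasts (MEF), in 12 groups of 3 replicates. All cells carried a doxycycline-inducible dCas9 (a Cas9 without cutting activity) together with a guide RNA directed to the major satellite repeats (MSR) of pericentric heterochromatin. In the MSR-dCas9-Control line dCas9 carried no effector domain, and in the MSR-dCas9-Activator line it was fused to the transcriptional activator VPR. Each line was collected uninduced, induced (at the end of a doxycycline treatment of 10 ng/ml), and at 4 later times, 3, 6, 12 and 24 h from the removal of doxycycline. The treatment was 24 h long for MSR-dCas9-Control and 6 h long for MSR-dCas9-Activator, so that the effector and the length of exposure cannot be told apart in a comparison of the lines after induction. The 36 libraries hold no untreated culture at the later times. Treatment and time in culture therefore cannot be told apart in a change within a line. The lines were stably transfected, selected cultures and not clones. In bulk RNA, fewer cells of a type and less RNA per cell cannot be told apart.

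Acta2, Tagln, Cnn1 and Myl9 encode proteins of the smooth muscle contractile apparatus and are classical targets of serum response factor (SRF), which binds CArG boxes with its actin-regulated cofactors of the MRTF family or with myocardin. Thbs1, Ankrd1 and Amotl2 are widely used readouts of YAP and TAZ, the effectors of the Hippo pathway, which reach DNA through the TEAD factors. In fibroblasts both systems respond to actin tension and adhesion, and Acta2 marks contractile fibroblasts.

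Promoter sequences of 5 of the 7 genes were found in the RefSeq table on GRCm38.p6, and Tagln and Thbs1 were not among them. In the 250 bases before each start, both strands were searched for the CArG box, for CArG-like sites with 1 G or C in the core between the outer CC and GG, and for GGAATG, the core of the TEAD site. The following stretches of 30 bases hold the matches of the 3 genes whose levels the results turn on and of Myl9, which has the CArG box itself, with the motif in capitals, 5′ to 3′ on the strand of the gene.
Acta2 CArG-like site 1: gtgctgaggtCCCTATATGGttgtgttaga
Acta2 CArG-like site 2: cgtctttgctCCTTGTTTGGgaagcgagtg
Acta2 GGAATG site: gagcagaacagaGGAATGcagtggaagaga
Myl9 CArG box: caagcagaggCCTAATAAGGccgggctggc
Myl9 CArG-like site: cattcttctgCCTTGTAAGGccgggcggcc
Ankrd1 GGAATG site 1: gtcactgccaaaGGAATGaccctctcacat
Ankrd1 GGAATG site 2: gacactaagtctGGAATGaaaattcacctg
Amotl2 GGAATG site: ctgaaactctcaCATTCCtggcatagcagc

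The Acta2 sites began 84, 34 and 146 bases upstream of the start (chr19:34255438-34255467, chr19:34255388-34255417 and chr19:34255502-34255531, minus strand). Those of Myl9 began 161 and 99 bases upstream (chr2:156775293-156775322 and chr2:156775355-156775384, plus strand). Ankrd1 held its pair of GGAATG matches 210 and 123 bases upstream (chr19:36120037-36120066 and chr19:36119950-36119979, minus strand), and Amotl2 held 1, on the opposite strand, 65 bases upstream (chr9:102717727-102717756, plus strand). The motifs did not overlap each other within a promoter. Except for those of Myl9, the stretches overlapped an exon of a transcript in the GENCODE M21 annotation. No match was found for Cnn1 in this window. Of 32851 mouse promoters of the same length, 1.47% held a CArG box, 8.59% a CArG box or CArG-like site (0.670% at least 2) and 12.6% GGAATG on either strand (1.02% at least 2). A match is a string of letters and was not tested for binding.

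The libraries held 27376846 to 57371803 counts on genes (median 42865961). Levels below are normalised counts (counts scaled by TMM-adjusted library size to the mean library), and log2 fold changes come from the quasi-likelihood test of edgeR, with p-values adjusted by Benjamini-Hochberg over all genes fitted. A gene was called at an adjusted p under 0.05, a log2 fold change beyond 1 in either direction and a mean normalised count above 100. Of the 7 genes, 5 had a mean above 100 and could be called. Cnn1 had a mean of 53.2, so its tests are given without a call, and Myl9 was too low to be fitted. As RPKM (counts per kilobase of exon and per size of library), group means ran from 46.4 to 295.1 for Acta2, 31.1 to 253.8 for Thbs1, 16.7 to 84.6 for Amotl2, 9.53 to 69.1 for Ankrd1, 0.788 to 6.00 for Tagln, 0.0548 to 1.20 for Cnn1 and 0 to 0.128 for Myl9. Acta2 and Thbs1 were the most abundant of the 7 per length, and Cnn1 and Myl9 were near the limit of detection.

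Among the markers of the labelled cell type, the fibroblast list (12 genes) summed to 945464 to 1469780.0 normalised counts in the 18 MSR-dCas9-Control libraries and to 462328 to 1261110.0 in the 15 MSR-dCas9-Activator libraries from induction on. In MSR-dCas9-Activator its median sum was 1443660.0 uninduced, 1119840.0 at the end of induction, 762546 at 12 h and 490585 at 24 h. Of its 9 genes with a mean above 100, 4 were called lower than in MSR-dCas9-Control at 12 h and 5 at 24 h (beside 22.8% and 8.64% of all genes). Lower at 24 h than before induction were 6 (beside 8.54%). From the end of induction to 12 h 1 was called higher than in MSR-dCas9-Control at each time, and at 24 h 0 were. The part of these markers in the results was not tested. Thy1 was near 0 in all 36. Replicate 2 of the MSR-dCas9-Activator line stood apart from replicates 1 and 3, most of all before induction, and values without it are given where it decides a result. At the end of induction it had the lowest share of counts on GSAT_MM, the targeted repeat (0.189%, against 0.281% and 1.79% in replicates 1 and 3), but from 3 to 24 h the lowest share was in replicate 1 (0.315% at 3 h, against 0.788% and 1.41% in replicates 2 and 3). The MSR-dCas9-Control libraries were between 0.00178% and 0.00396%. Repeats took 26.5 to 30.6% of counts in the MSR-dCas9-Activator libraries at 12 and 24 h and 20.8 to 23.3% in those of MSR-dCas9-Control.

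Before induction the lines did not differ in any of the 7 genes by the call rule (0 of the 5 that could be called, beside 0.448% of all genes called in either direction). The SEs of the differences were wide (0.23 to 0.33 among those 5 genes, on the log2 scale), and the largest difference among the 5 was 0.20 in Tagln. That of Tagln ran from 0.08 to 0.68 over the alternative settings. With 1 library left out at a time it ran from -0.35 to 0.62. From the end of induction to 12 h after removal 4 of the 5 were called at every time point, Tagln higher and Thbs1, Ankrd1 and Amotl2 lower in the MSR-dCas9-Activator line. At 24 h Tagln alone was called, beside 6.99% of all genes called higher and 8.64% lower.

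**Figure D1:**
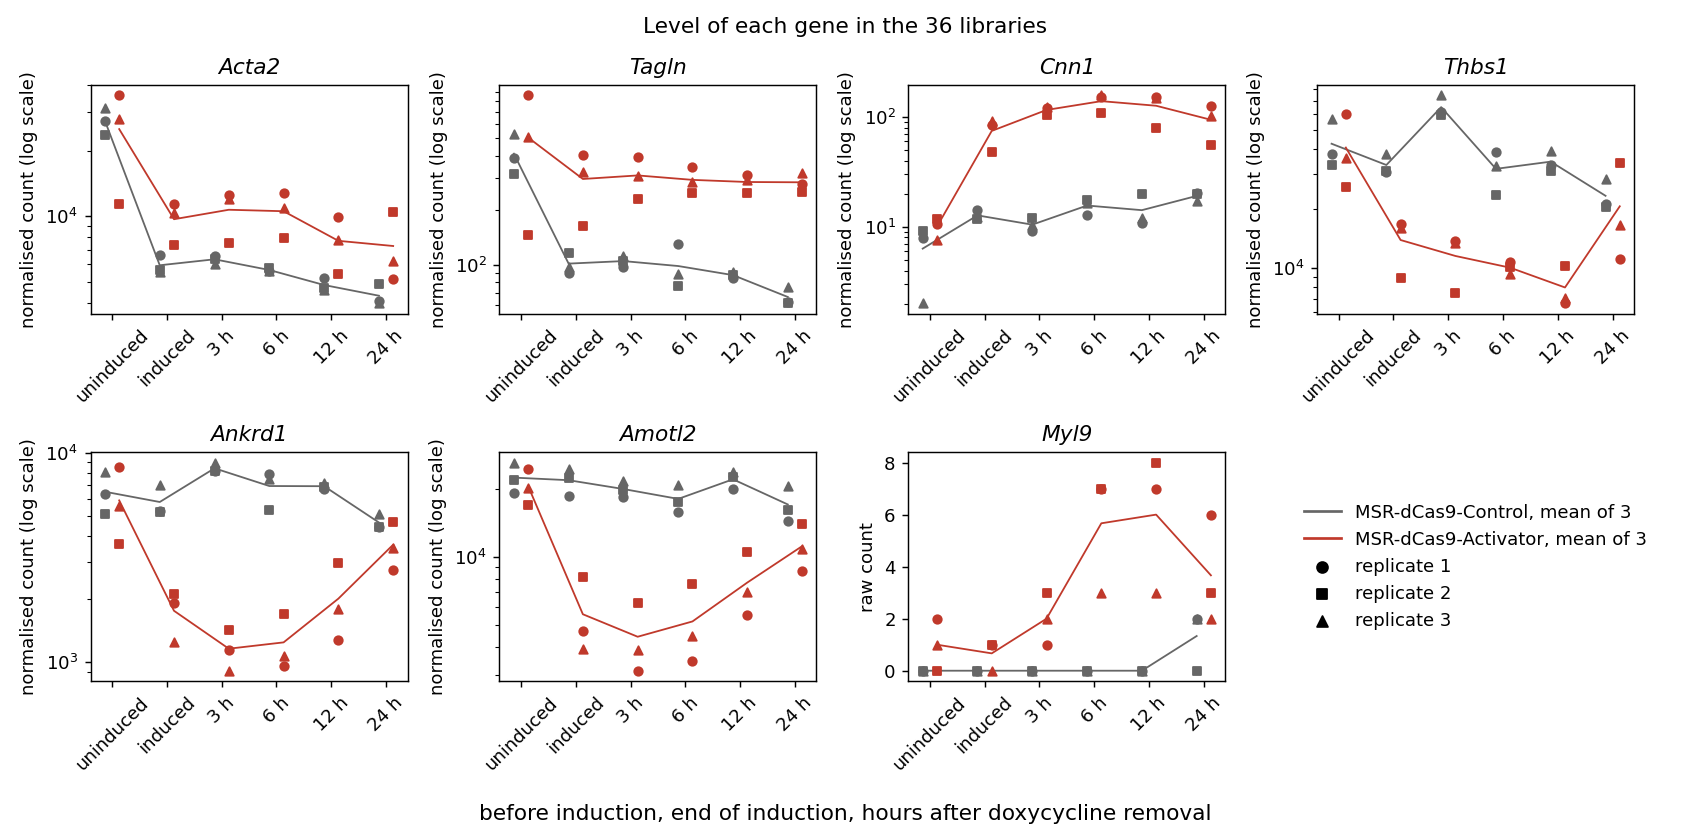
Level of each gene in the 36 libraries, by time point, with the mean of 3 replicates as a line (grey, MSR-dCas9-Control; red, MSR-dCas9-Activator; normalised counts on a log axis, raw counts on a linear axis for Myl9). Acta2 dropped in both lines, further in MSR-dCas9-Control. Tagln dropped in MSR-dCas9-Control. In MSR-dCas9-Activator the mean of Tagln was lower from induction on, but its libraries overlapped the uninduced ones and no change was called. Cnn1 was higher in MSR-dCas9-Activator from induction on. Thbs1, Ankrd1 and Amotl2 dropped in MSR-dCas9-Activator and moved back towards the MSR-dCas9-Control level by 24 h.

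Acta2 encodes smooth muscle alpha-actin. In the uninduced MSR-dCas9-Control line it had 27332, 23600.4 and 31209.6 normalised counts in replicates 1 to 3, and after the 24 h treatment it had 6657, 5662 and 5513. The levels before and after treatment did not overlap. Here and below, the share of all genes whose libraries did not overlap was not counted. Acta2 fell 4.60-fold, a log2 fold change of -2.20 ± 0.29 (SE), adjusted p = 0.000293, and was 1 of 15 genes called lower in this comparison (0.110% of all genes with a mean above 100). Acta2 stayed low after removal, with 6579.9, 6375 and 6041 at 3 h, then 5586, 5777 and 5602 at 6 h. The 12 h libraries had 5187, 4686 and 4597, and the 24 h libraries 4080.0, 4872 and 3968. Against the uninduced line the fall at 24 h was -2.65 ± 0.29 (SE), adjusted p = 3.34e-05 (0.198% of genes called lower).

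In the MSR-dCas9-Activator line Acta2 also fell. Its uninduced libraries had 35871, 11400.2 and 28019.7 normalised counts, replicate 2 being the low one, and the induced libraries had 11348, 7338 and 10338. The 3 h libraries had 12523, 7524 and 12032, followed by 12824, 7892 and 10871 at 6 h. The 12 h libraries had 9952, 5392 and 7749, followed by 5158, 10464 and 6241 at 24 h. Uninduced replicates 1 and 3 were above all 15 later libraries, whereas uninduced replicate 2 was below 3 of them. The fall was -1.35 ± 0.28 (SE), adjusted p = 0.000277 at the end of induction (beside 12.6% of genes called lower) and -1.69 ± 0.29 (SE), adjusted p = 2.03e-05 at 24 h (8.54% called lower).

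After induction the level of Acta2 was higher in MSR-dCas9-Activator than in MSR-dCas9-Control, having fallen in both lines, and the difference between the lines was under the fold limit. The log2 fold change was -0.17 before induction, 0.69 ± 0.28 (SE), adjusted p = 0.0382 at its end, and 0.73, 0.87, 0.65 and 0.79 at 3, 6, 12 and 24 h. The libraries of the lines did not overlap at any of the 5 time points from induction on (share of all genes not counted). Scaled to the mitochondrial mRNAs it was 0.33 at the end of induction (adjusted p = 0.283), 0.12 at 3 h, 0.15 at 6 h, 0.015 at 12 h (adjusted p = 0.961) and 0.67 at 24 h. Without replicate 2 of the MSR-dCas9-Activator line, a set chosen after the data were seen, the difference at 6 h was 1.10 (adjusted p = 3.40e-08).

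Tagln encodes transgelin, an actin-binding protein of smooth muscle. In MSR-dCas9-Control its uninduced libraries had 387, 319 and 526 normalised counts and its induced libraries 90.4, 117 and 96.8. At 3, 6 and 12 h they had 97.2, 105 and 112, then 129.9, 76.0 and 88.7, then 84.7, 87.1 and 90.7, and at 24 h 62.3, 61.0 and 75.4. All later libraries of the line were below its lowest uninduced one. The fall was -1.97 ± 0.32 (SE), adjusted p = 0.0025 at the end of treatment and -2.63 ± 0.33 (SE), adjusted p = 6.13e-05 at 24 h. Tagln and Acta2 were 2 of the 15 genes called lower at the end of treatment and 2 of the 27 at 24 h. Without induced replicate 1 the fall of Tagln at the end of treatment was -1.76 (adjusted p = 0.0547).

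After induction the MSR-dCas9-Activator line had more Tagln than MSR-dCas9-Control. Its uninduced libraries had 862, 146 and 505 normalised counts and its induced libraries 406, 163 and 324. At 3, 6, 12 and 24 h they had 396, 229.9 and 308, then 348, 249.9 and 285, then 315, 249.6 and 294, then 281, 253 and 322. Replicate 2 was the lowest of the 3 at each time point, and its uninduced library was below all of its later ones. Within the line no change of Tagln was called, with -0.71 ± 0.30 (SE), adjusted p = 0.0404 at the end of induction and -0.71 ± 0.30 (SE), adjusted p = 0.039 at 24 h, but without uninduced replicate 2 both passed the fold limit (-1.12 and -1.15).

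Compared with MSR-dCas9-Control, Tagln was called higher at all 5 time points from induction on. The difference was 1.47 ± 0.32 (SE), adjusted p = 0.0003 at the end of induction, where 5.81% of genes were called higher. It was 1.54 at 3 h, 1.60 at 6 h and 1.69 at 12 h, beside 7.09%, 7.53% and 8.99% of genes called higher. At 24 h it was 2.12 ± 0.33 (SE), adjusted p = 4.26e-06, 4.34-fold higher (beside 6.99%). The libraries of the lines did not overlap at any of these times (share of all genes not counted). Scaled to the mitochondrial mRNAs in place of TMM, the difference was 0.94 at 3 h and 0.89 at 6 h, under the fold limit. Of the exon length of Tagln, 62.4% is shared with the antisense gene Gm48529 and 5.40% with Pcsk7. The strand setting of the counting is not given in the sources used here, so the reads of Tagln and Gm48529 cannot be told apart. The ratio of their group means was between 0.904 and 1.07 in the 12 groups.

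Cnn1 encodes calponin, which binds actin and restrains the myosin ATPase. It had 11, 7 and 2 raw counts in the uninduced MSR-dCas9-Control libraries, 18, 12 and 8 in the induced ones and 23, 14 and 19 at 24 h. In MSR-dCas9-Activator it had 12, 12 and 7 raw counts before induction and 103, 43 and 106 after it. At 3, 6, 12 and 24 h it had 144, 117 and 111, then 160, 110 and 132, then 148, 85 and 103, then 123, 59 and 96. From induction on every MSR-dCas9-Activator library was above every MSR-dCas9-Control library. The difference between the lines was 2.52 ± 0.33 (SE), adjusted p = 2.13e-07 at the end of induction, 3.48 ± 0.33 (SE), adjusted p = 4.10e-10 at 3 h and 2.28 ± 0.31 (SE), adjusted p = 3.08e-07 at 24 h, with no call because of its low mean. Without limits on low counts, 10449, 14891 and 12044 genes passed the p and fold limits in either direction at these times. The share of genes whose libraries did not overlap was not counted. Unlike Acta2 and Tagln, Cnn1 was at a higher level than before induction in its own line (2.85 ± 0.34 (SE), adjusted p = 4.63e-08), whereas in MSR-dCas9-Control the change was 1.03 ± 0.44 (SE), adjusted p = 0.578.

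Myl9 encodes the regulatory light chain of smooth muscle and non-muscle myosin. It had at most 8 raw counts in any library and was at 0 in 18 of the 36. The MSR-dCas9-Control libraries were at 0 at every time but 24 h, where 2 of them had 2 counts. A library count of 0 allows up to 3 counts. In MSR-dCas9-Activator it had 2, 0 and 1 counts before induction, 7, 7 and 3 at 6 h and 7, 8 and 3 at 12 h. These counts are too few for a test, and a difference was not detectable at this depth at the other times.

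Thbs1 encodes thrombospondin, a secreted matricellular glycoprotein. In MSR-dCas9-Control the uninduced libraries had 37692, 33309 and 56584 normalised counts, the induced libraries 30618, 31126 and 37839.9 and those at 3 h 61483, 59188 and 74715. The 6 h libraries had 38756, 23534 and 32941, the 12 h libraries 33346, 31008 and 39211 and the 24 h libraries 21069, 20379 and 28127. All 3 libraries at 3 h were above all those of the line at other times, but the change from the end of treatment was not called (0.97 ± 0.34 (SE), adjusted p = 0.405; 0 of the 5 genes were called here, beside 0.0734% of all genes in either direction). In MSR-dCas9-Activator the uninduced libraries had 60291, 25549.7 and 36182, the induced libraries 16617, 8949 and 16008 and those at 3 h 13634, 7494 and 13403. The 6 h libraries had 10714, 10071 and 9338, the 12 h libraries 6620.2, 10214 and 7094 and the 24 h libraries 11153, 33938 and 16482, where replicate 2 was by far the highest.

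Within MSR-dCas9-Activator, Thbs1 fell at induction (-1.56 ± 0.34 (SE), adjusted p = 0.000439), and it rose between 12 and 24 h (1.38 ± 0.34 (SE), adjusted p = 0.0034; 6.03% of genes were called higher). The rise was not called without 24 h replicate 2 (0.63, adjusted p = 0.116), but it was without replicate 2 at all time points (1.05, adjusted p = 0.00229), and replicates 1 and 3 were each higher at 24 h than at 12 h. Between the lines Thbs1 was 2.42-fold lower in MSR-dCas9-Activator at the end of induction (-1.28 ± 0.34 (SE), adjusted p = 0.00255), beside 12.0% of genes called lower. The difference was -2.51 ± 0.35 (SE), adjusted p = 1.11e-06 at 3 h, when MSR-dCas9-Control was at its highest. It was -1.64 at 6 h and -2.09 at 12 h, and -0.13 ± 0.33 (SE), adjusted p = 0.755 at 24 h, when the libraries of the lines overlapped. Without 24 h replicate 2 of MSR-dCas9-Activator the last of these was -0.87 (adjusted p = 0.0114), under the fold limit. Of its exon length 3.40% is shared with Gm29233 on the opposite strand.

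Ankrd1 encodes an ankyrin repeat protein of muscle and an established YAP target. MSR-dCas9-Control had 6352, 5081 and 8122 normalised counts uninduced, 5252, 5203 and 7016 induced and 8158, 8161 and 8978 at 3 h, and 4406, 4444 and 5100.5 at 24 h. None of the tested changes of Ankrd1 within this line was called. In MSR-dCas9-Activator the uninduced libraries had 8524, 3691 and 5567 and the induced libraries 1913, 2131 and 1246. At 3, 6, 12 and 24 h they had 1146, 1429 and 913, then 962, 1704 and 1073, then 1272, 2983 and 1790.1, then 2752, 4679 and 3502. Replicate 2 was the highest of the 3 at each time from induction on. Between the lines the libraries did not overlap from the end of induction to 12 h (share of all genes not counted), and overlapped at 24 h. The difference was -1.73 ± 0.31 (SE), adjusted p = 4.91e-05 at the end of induction, -2.86 ± 0.32 (SE), adjusted p = 3.99e-08 at 3 h (7.28-fold lower), -2.49 at 6 h, -1.80 at 12 h and -0.36 ± 0.30 (SE), adjusted p = 0.297 at 24 h. Beside this, 19.8%, 21.5% and 22.8% of genes were called lower at 3, 6 and 12 h.

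Amotl2 encodes an angiomotin family protein that binds YAP and is itself a YAP target. In MSR-dCas9-Control it stayed between 14418 and 26222 normalised counts in the 18 libraries, with none of the tested changes called. In MSR-dCas9-Activator it had 24667, 16981 and 20321 uninduced and 4683, 8134 and 3896 induced. At 3, 6, 12 and 24 h it had 3129, 6270.1 and 3882, then 3441, 7621 and 4466, then 5543, 10531 and 7019.6, then 8623, 14052 and 10804. All 3 replicates were above their own 3 h level at 24 h, and all 3 were below the lowest MSR-dCas9-Control library of the same time. The fall at induction was -1.96 ± 0.24 (SE), adjusted p = 2.96e-07. Between the lines the difference was -2.00 ± 0.24 (SE), adjusted p = 1.83e-07 at the end of induction, -2.22 ± 0.25 (SE), adjusted p = 1.79e-08 at 3 h, -1.85 at 6 h, -1.56 at 12 h and -0.64 ± 0.24 (SE), adjusted p = 0.0202 at 24 h. The promoter stretches of Ankrd1 and Amotl2 shown above hold GGAATG, and 12.6% of all promoters do too. Acta2, which was at a higher level in MSR-dCas9-Activator from induction on, also holds it, and the promoter of Thbs1 was not searched.

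**Figure D2:**
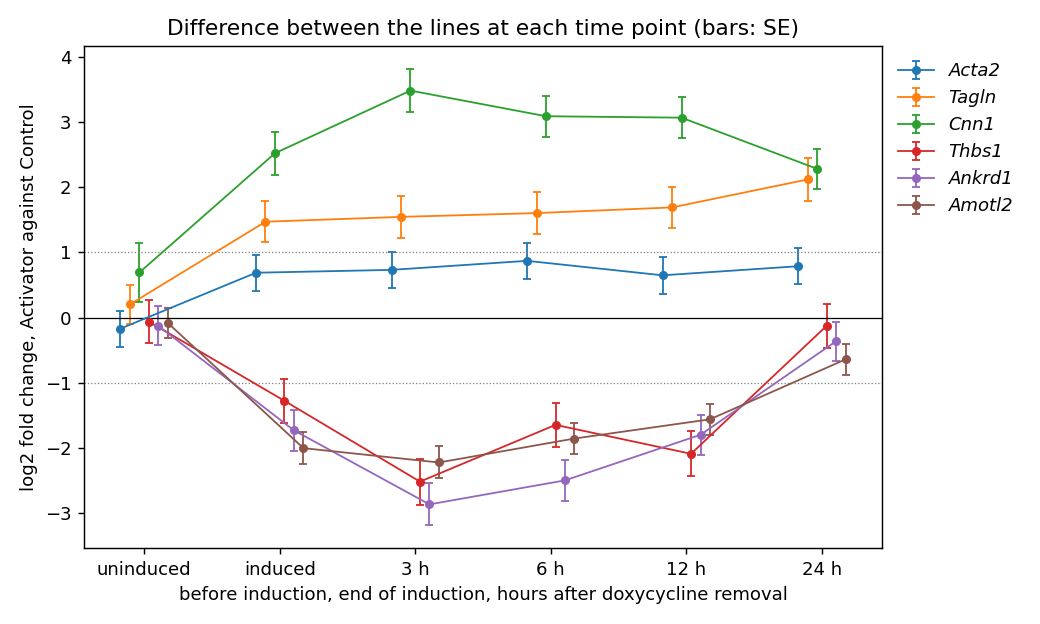
Log2 fold change of 6 genes in MSR-dCas9-Activator against MSR-dCas9-Control at each time point (error bars, SE; dotted lines, the fold limit of 1 in either direction). Tagln and Cnn1 are above 1 from induction on, Acta2 is between 0.65 and 0.87, and Thbs1, Ankrd1 and Amotl2 are below -1 until 12 h and between -0.64 and -0.13 at 24 h.

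Averaged over the 6 time points in an additive model, the lines differed by 1.43 ± 0.16 (SE), adjusted p = 2.79e-09 in Tagln (beside 6.05% of genes called higher), by -1.57 ± 0.23 (SE), adjusted p = 2.22e-07 in Ankrd1, -1.40 ± 0.17 (SE), adjusted p = 1.11e-08 in Amotl2 and -1.29 ± 0.22 (SE), adjusted p = 2.51e-06 in Thbs1 (beside 11.6% called lower). Acta2 differed by 0.60 ± 0.12 (SE), adjusted p = 3.69e-05, under the fold limit. From the end of induction to 3 h after removal none of the 5 genes was called in MSR-dCas9-Activator, where 1.27% of all genes were called in either direction. At 24 h against uninduced, Acta2 alone was called in that line, but all 5 were called lower without uninduced replicate 2 and 3 of them without 24 h replicate 2, the added 2 being Thbs1 (-1.66) and Amotl2 (-1.05).

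The same comparison can be made on the change from the uninduced state, by the interaction of line and time, which takes out the difference the lines started with. At the end of induction Tagln differed by 1.27 ± 0.43 (SE), adjusted p = 0.0255, Ankrd1 by -1.60 ± 0.43 (SE), adjusted p = 0.00636 and Amotl2 by -1.92 ± 0.33 (SE), adjusted p = 0.000151, beside 4.67% of genes called higher and 11.4% lower. Thbs1 did not pass there (-1.21 ± 0.47 (SE), adjusted p = 0.0519), nor did Acta2 (0.86 ± 0.39 (SE), adjusted p = 0.0969). At 3 h Tagln was called higher and Thbs1, Ankrd1 and Amotl2 lower (beside 5.93% and 19.5%), and the same 4 were called at 6 h (beside 6.55% and 21.3%) and 12 h (beside 7.87% and 22.3%). Acta2 was called at 6 h alone (1.04 ± 0.39 (SE), adjusted p = 0.0309), and there the call was lost without uninduced replicate 2 of MSR-dCas9-Activator (0.70, adjusted p = 0.0873), without its 6 h replicate 1, and without uninduced replicate 3 or 6 h replicate 1 of MSR-dCas9-Control (0.95 to 0.99). It was also lost with mitochondrial scaling (0.30), without TMM (0.85), without limits on low counts (1.04, on its adjusted p) and without replicate 2 of MSR-dCas9-Activator at all times (0.89). At 24 h Tagln remained (1.92 ± 0.44 (SE), adjusted p = 0.00157, beside 5.83% called higher). The interaction of Tagln at the end of induction was not called without the replicate block (1.26, adjusted p = 0.0647), nor with mitochondrial scaling (0.89). It was also lost when any 1 of 6 of the 12 libraries compared was left out (uninduced replicate 3 and induced replicates 1 and 3 of MSR-dCas9-Control, and uninduced replicate 2 and induced replicates 1 and 3 of MSR-dCas9-Activator), with values from 0.87 to 1.23. At 3 and 6 h it was under the fold limit without uninduced replicate 2 of MSR-dCas9-Activator (0.92 and 0.97). With mitochondrial scaling the call of Tagln was also lost at 3, 6 and 12 h (0.72, 0.67 and 0.88) and stood at 24 h (1.71). With only the libraries compared it was lost at the end of induction and at 3 h (1.34 and 1.48, adjusted p above 0.05 at both).

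**Figure D3:**
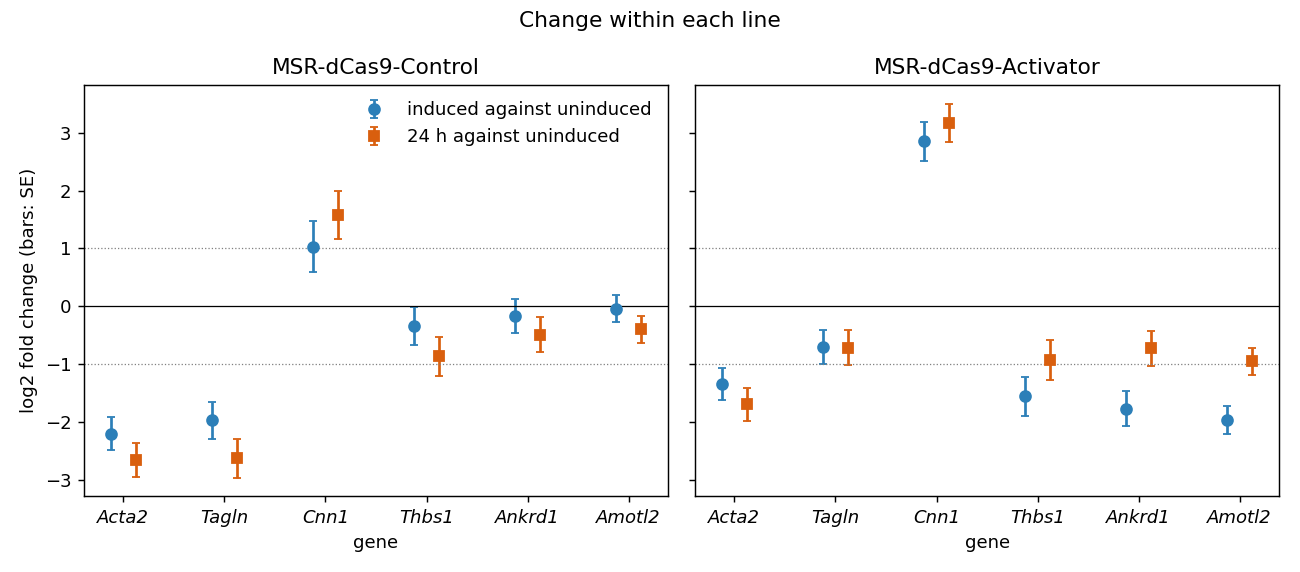
Log2 fold change of 6 genes within each line, at the end of treatment and at 24 h after removal, against the uninduced state (error bars, SE; dotted lines, the fold limit). In MSR-dCas9-Control Acta2 and Tagln are at -1.97 to -2.65 and the YAP target genes between -0.87 and -0.04, and in MSR-dCas9-Activator the YAP target genes are at -1.56 to -1.96 at the end of induction.

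The rest of the 2 systems was followed in 4 lists of genes. Of the 32 further contractile and SRF target genes, 27 had a mean above 100. At the end of induction 0 of these were called higher in MSR-dCas9-Activator, 1 was called lower and 26 were not called. Over all genes 5.81% were called higher and 12.0% lower at that time. The median log2 fold change of the 27 was 0.09, against -0.07 over all genes. The gene called lower was Filip1l (-1.72 ± 0.20, adjusted p = 8.23e-08). At 3 h Filip1l, Itga5 (integrin alpha 5), Fhl2 and Zyx (zyxin) were called lower (4 of the 27, beside 19.8% of all genes), and at 24 h 0 of the 27 were called in either direction (median -0.24, all genes -0.30). At 24 h 6.99% of all genes were called higher and 8.64% lower. None of the 27 was called higher at these times, when Tagln was, and at 3 h 7.09% of all genes were called higher. Among its low members, with means under 100, Actg2 (enteric smooth muscle actin) differed by 3.10 ± 0.51, adjusted p = 8.03e-06 and Acta1 (skeletal muscle actin) by 1.45 ± 0.28, adjusted p = 6.10e-05. These 2 were named after their values were seen. Values of the other low members of the list are not given, and the share of genes of like level that differed was not counted.

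Of the 24 further YAP/TEAD target genes, 23 had a mean above 100. At the end of induction 9 were called lower, 1 was called higher and 13 were not called, with a median of -0.57. The lowest were Nuak2, a kinase of the AMPK family (-2.29 ± 0.39, adjusted p = 3.26e-05), and F3, tissue factor (-2.16 ± 0.43, adjusted p = 0.000159). Ccn2 and Ccn1, matricellular proteins and common YAP readouts, were at -1.88 and -1.15, and both were named after their values were seen. The gene called higher was Nt5e, which encodes the ecto-nucleotidase CD73 (3.86 ± 0.29, adjusted p = 1.48e-11). Over all genes 12.0% were called lower at that time. The counts lower were 10 at 3 h, 10 at 6 h and 11 at 12 h, beside 19.8%, 21.5% and 22.8% of all genes. At 24 h, where 8.64% of all genes were called lower and 6.99% higher, 3 were called lower, led by Rbms3 (-1.32 ± 0.19, adjusted p = 1.24e-06) and Arhgef17 (-1.23 ± 0.20, adjusted p = 7.44e-06), and 3 were called higher, led by Nt5e (1.92 ± 0.27, adjusted p = 8.99e-07) and Gadd45a (1.33 ± 0.20, adjusted p = 2.17e-06). The median at 24 h was -0.26, near that of all genes.

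The factors themselves differed between the lines to differing extents. Srf differed between the lines by -0.60 ± 0.12, adjusted p = 0.000133 at the end of induction and -0.45 at 24 h. Its cofactors Mrtfa and Mrtfb were at -0.53 and -0.77 at the end of induction. At 3 h Mrtfb was called lower (-1.17 ± 0.22, adjusted p = 5.81e-05), beside 19.8% of all genes. Yap1 was at -0.67 ± 0.08, adjusted p = 1.49e-07 at the end of induction. It was called lower from 3 h, where it was just past the fold limit, to 12 h (-1.04 at 6 h and -1.16 at 12 h). Over all genes 19.8%, 21.5% and 22.8% were called lower at 3, 6 and 12 h. Wwtr1, which encodes TAZ, was between -0.33 and -0.05 from induction on and was not called. Among the DNA-binding partners Tead4 was the lowest (-1.67 ± 0.23, adjusted p = 6.04e-07 at the end of induction, -2.53 at 3 h, -0.51 at 24 h). Tead3 was at -1.05, Tead1 at -0.47 and Tead2 at -0.29 at the end of induction, when 12.0% of all genes were called lower. Before induction none of these 9 factors was called, beside 0.448% of all genes called in either direction.

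Of the 20 genes of the Hippo pathway and TEAD list, 5 were called lower and 0 higher at the end of induction (beside 12.0% and 5.81% of all genes), among them Tead4 and Vgll4, a TEAD cofactor (-1.21 ± 0.21, adjusted p = 2.49e-05). At 24 h 2 were called lower, a share near that of all genes (8.64%), Wwc1, which encodes the Hippo activator KIBRA (-1.28 ± 0.13, adjusted p = 1.61e-09), and Amot, a paralogue of Amotl2 (-1.18 ± 0.17, adjusted p = 1.25e-06). Of the 18 TGF-beta pathway genes, a system that also drives Acta2 in fibroblasts, 16 had a mean above 100. At the end of induction 8 were called lower (beside 12.0% of all genes), among them the signal transducer Smad3 (-2.07 ± 0.32, adjusted p = 8.85e-06), and 1 higher, Ltbp2, a matrix protein (4.57 ± 0.28, adjusted p = 3.54e-13). At 24 h 1 was called lower (beside 8.64%), Smad6 (-1.04 ± 0.36, adjusted p = 0.0147), and 2 higher, Ltbp2 (3.46 ± 0.27, adjusted p = 1.42e-11) and Smad7 (1.36 ± 0.24, adjusted p = 3.58e-05), both SMADs being inhibitors of the pathway. The medians at the end of induction were -0.37 and -0.89 for the Hippo and TGF-beta lists.

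**Figure D4:**
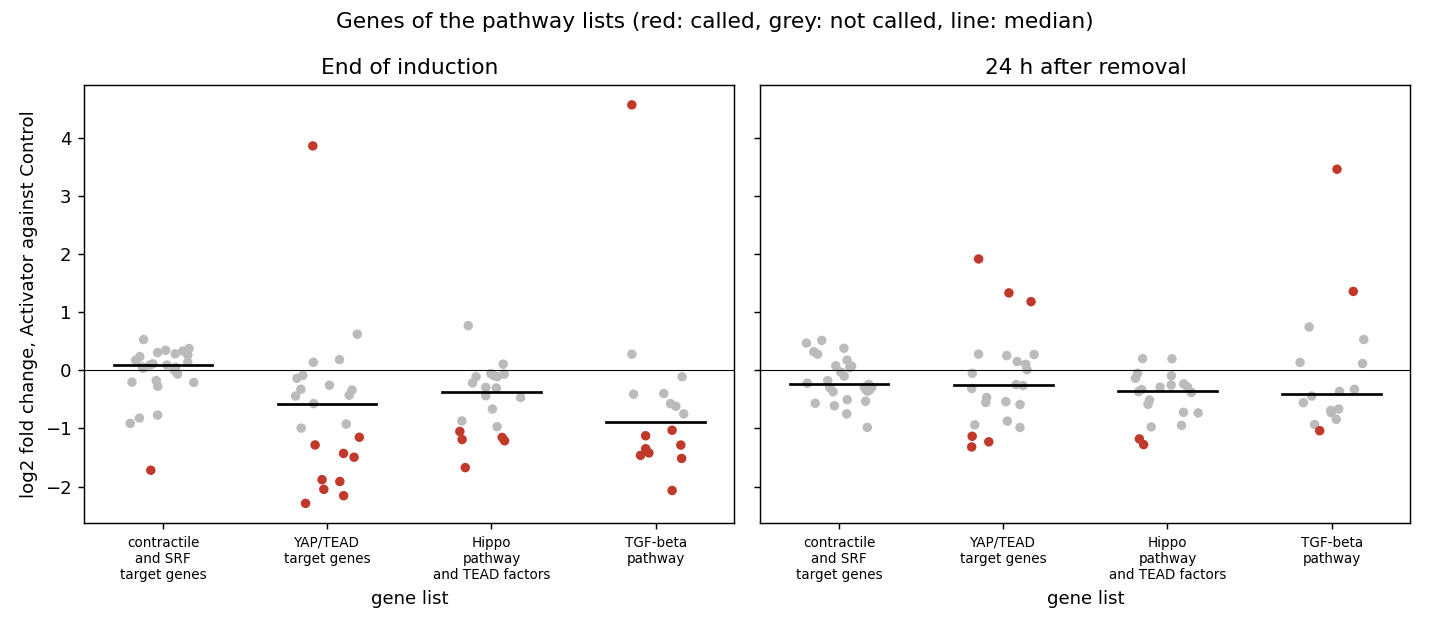
Log2 fold change between the lines of each gene with a mean above 100 in the 4 lists, at the end of induction and at 24 h (red, called; grey, not called; line, median of the list). The YAP/TEAD and TGF-beta lists have medians of -0.57 and -0.89 at the end of induction and of -0.26 and -0.40 at 24 h, and the contractile list has medians of 0.09 and -0.24.

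Markers of other cell types differed between the lines, some of them before induction, and their part in the results on the contractile genes was not tested. The smooth muscle list (8 genes, including Cnn1) summed to 3286 to 4414 normalised counts in the 18 MSR-dCas9-Control libraries and to 4472 to 6359 in the 15 MSR-dCas9-Activator libraries from induction on. Uninduced, the MSR-dCas9-Activator libraries had 3797 to 4079. Of its genes only Smtn (mean 3953) and Des (194) had means above 100, and neither was called at the end of induction. At that time 6 of its 8 genes, all with means under 100, passed the p and fold limits, higher in MSR-dCas9-Activator. So did 3 of the 5 fitted skeletal muscle genes, all with means under 100, and 4 of the 5 endothelial genes. Of the endothelial genes 2 had means above 100, Pecam1 (mean 406) and Tek (214). Both were called higher in MSR-dCas9-Activator at each time from the end of induction to 24 h, beside 5.81 to 8.99% of all genes. Without limits on low counts 10449 genes passed in either direction, and the share among genes of like level was not counted. The endothelial list (5 genes) was at 25.9 to 80.9 in MSR-dCas9-Control, at 68.9 to 129 in uninduced MSR-dCas9-Activator, where 1 gene was already called higher, and at 599 to 1875 from induction on, of which Cdh5, Kdr and Emcn had means of at most 10. In the same order of libraries the skeletal muscle list (9 genes) was at 50.0 to 111, 86.7 to 125 and 111 to 309, with Myh1, Myh4, Ckm, Tnnt3, Myod1 and Myog at means of at most 10. The cardiac muscle list (9 genes) was at 548 to 1147, 378 to 907 and 336 to 879, with Myh6, Myh7, Tnni3, Myl2 and Myl7 at means of at most 10. Tnnt2 (mean 600) was its only gene with a mean above 100, and was called lower in MSR-dCas9-Activator at 3, 6 and 12 h. At those times 6 of its 7 fitted genes, all with means under 100, passed the p and fold limits, higher in MSR-dCas9-Activator. The macrophage list (5 genes) was at 460.1 to 629, 510.3 to 547 and 505 to 1105, with Adgre1 at a mean of at most 10, and the epithelial list (5 genes) at 36.7 to 69.9, 88.7 to 131 and 83.8 to 178, with Epcam and Krt18 at means of at most 10. The epithelial sums of uninduced MSR-dCas9-Activator were all above those of MSR-dCas9-Control.

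Across the 12 group means of log2 CPM (counts per library size, on a log scale), which share the 2 lines and 6 time points, Ankrd1 and Amotl2 had r = 0.977, Thbs1 and Ankrd1 0.930, and Thbs1 and Amotl2 0.891. Within the 6 means of MSR-dCas9-Control alone these were 0.389, 0.871 and 0.465, and within those of MSR-dCas9-Activator 0.982, 0.862 and 0.837. Ankrd1 and Amotl2, and Thbs1 and Amotl2, were thus less alike in the MSR-dCas9-Control means than over all 12. Acta2 and Tagln had r = 0.836 over the 12 means, 0.996 within MSR-dCas9-Control and 0.939 within MSR-dCas9-Activator. Acta2 and Cnn1 had r = -0.128 over the 12 means but ran opposite to each other within each line (-0.934 and -0.864). The genes most like each member, among 13628 with a mean above 100, were Prn, Lox and Scel for Acta2 (r = 0.941, 0.938 and 0.927), and 1700012D14Rik, Gm15614 and Bcas2 for Cnn1 (0.991, 0.988 and 0.988). For Tagln and Thbs1 the first was the overlapping gene, Gm48529 (0.997) and Gm29233 (0.999), followed by Gpc1 and Fgfbp3 for Tagln (0.949 and 0.945) and by Klhdc8a and Dgke for Thbs1 (0.978 and 0.972). Those for Ankrd1 were Id1, Nom1 and Mfsd5 (0.996, 0.995 and 0.994), and those for Amotl2 were Pard6b, Bdnf and Nuak2 (0.995, 0.994 and 0.994).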

How the data were processed

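Total RNA from 36 MEF libraries was measured. The authors prepared stranded, ribosomal RNA-depleted total RNA libraries, trimmed paired-end reads with cutadapt, used STAR for alignment to GRCm38 and TEtranscripts to count reads on genes and on repeat families, and the deposited values are raw counts, whole numbers without normalisation. The strand setting, the sharing of multi-mapped reads and the annotation release are not given in the sources used here. An unnamed entry (at most 0.00452% of counts per library) was left out. Other libraries of the series were not analysed here.

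Counts were fitted in R 4.3.3 with edgeR 4.0.16 (TMM factors, filterByExpr, glmQLFit with robust fitting, glmQLFTest), with all 12 groups and the replicate number as block, or additively with replicate, time point and line, which is the form of the study's own model. The SE was taken as the absolute log2 fold change over the root of F. Normalised counts were scaled to the mean effective library size, and log2 CPM used a prior count of 2. P-values were adjusted by Benjamini-Hochberg over 28536 genes, and percentages of genes called are of 13628 with a mean above 100. Where the labels do not name separate cultures, p-values measure the spread between these samples. Floors cover counting error alone.

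Deviations from the group means of same-numbered libraries of the 2 lines correlated at -0.0151 to 0.485. Positions are on GRCm38 (GENCODE M21), and promoters are from RefSeq (GRCm38.p6). The 7 genes and all lists were chosen with earlier results of these data known. Named were the 7 genes, Srf, Mrtfa, Mrtfb, Yap1, Wwtr1 and the Tead genes, the 2 largest called rises and falls of each list at the end of induction and at 24 h, and the 3 genes most like each member. A further gene and list named by this rule are not reported here. Alternatives were DESeq2 1.42.0, its size factors, no TMM factors, scaling to the 13 mitochondrial mRNAs, repeat counts in the library size, no replicate block, no filters on low counts, no fold limit, only the libraries compared, and leaving out each library, and MSR-dCas9-Activator replicate 2 at all times was left out as an alternative chosen after seeing the data. The fit was tested on simulated data.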

Additional observations from a re-analysis of the deposited data

Results flagged for a closer look

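The change from the uninduced state differed between the lines, by the interaction of line and time (MSR-dCas9-Activator less MSR-dCas9-Control, edgeR's quasi-likelihood test, adjusted p under 0.05), in 6 of the 7 genes at 1 or more time points. Of all genes with a mean above 100, 4.67 to 7.87% were called higher at these times. From the end of induction to 12 h, 11.4 to 22.3% were called lower. The log2 differences were 1.27 at the end of induction, then 1.34 at 3 h, then 1.40 at 6 h, then 1.49 at 12 h, then 1.92 at 24 h for Tagln, and 1.04 at 6 h for Acta2. In Cnn1, whose mean is under 100, they were 1.83 at the end of induction, then 2.79 at 3 h, then 2.40 at 6 h, then 2.37 at 12 h, then 1.59 at 24 h. In Thbs1 they were -2.45 at 3 h, then -1.58 at 6 h, then -2.03 at 12 h, in Ankrd1 -1.60 at the end of induction, then -2.74 at 3 h, then -2.37 at 6 h, then -1.67 at 12 h, and in Amotl2 -1.92 at the end of induction, then -2.14 at 3 h, then -1.77 at 6 h, then -1.48 at 12 h. With mitochondrial scaling the call of Acta2 at 6 h was lost, as were those of Tagln from the end of induction to 12 h. The calls of Acta2 at 6 h and of Tagln up to 6 h were also lost without certain single libraries. The lines also differed in the length of doxycycline exposure, which cannot be told apart from the effector.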

How the results depend on the processing

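Under every alternative run, the number of the 7 genes called between the lines at the end of induction and at 3, 6 and 12 h was within 1.5 times of the 4 reported. For between the lines, 24 h, the count of 1 became 3 without the fold limit and 2 without limits on low counts. For Activator 24 h against 12 h, the count of 1 became 2 without the fold limit, 2 without TMM, 2 with mitochondrial scaling and 2 without Activator replicate 2. For Activator 24 h against uninduced, the count of 1 became 5 without the fold limit, 3 with mitochondrial scaling, 3 with repeats in the library size, 5 without Activator replicate 2 and 2 without limits on low counts. For change from uninduced to 6 h, between the lines, the count of 5 became 3 with mitochondrial scaling. For change from uninduced to 24 h, between the lines, the count of 1 became 2 with DESeq2, 2 with its size factors and 2 without limits on low counts. Leaving out 1 library at a time gave counts of 1 to 2 for between the lines, 24 h, 0 to 2 for Activator 24 h against 12 h, 1 to 5 for Activator 24 h against uninduced, 1 to 2 for Control induced against uninduced, 3 to 5 for change from uninduced to 6 h, between the lines and 1 to 2 for change from uninduced to 24 h, between the lines. Without the replicate block the counts of the 7 genes called stayed within 1.5 times. Among them the call of Tagln in the change to induced was lost (1.26), and of the TGF-beta genes 0 in place of 1 (Smad6) were called lower between the lines at 24 h. Directions turned in differences that had not been called, namely Acta2, between the lines, uninduced (0.21 without Activator replicate 2), Thbs1, between the lines, uninduced (0.12 without Activator replicate 2), Ankrd1, between the lines, uninduced (0.0612 without Activator replicate 2), Amotl2, between the lines, uninduced (0.0298 without Activator replicate 2), Tagln, Activator 3 h against induced (-0.0599 without Activator replicate 2), Acta2, Activator 24 h against 12 h (0.24 without TMM, 0.36 with mitochondrial scaling and 0.018 without limits on low counts), Tagln, Activator 24 h against 12 h (0.23 without TMM, 0.31 with mitochondrial scaling, 0.000845 with repeats in the library size, 0.0365 without Activator replicate 2, 0.029 without limits on low counts and 0.0807 with only the libraries compared), Tagln, Control 3 h against induced (-0.0232 without TMM), Amotl2, Control 3 h against induced (0.0983 with mitochondrial scaling) and Thbs1, change from uninduced to 24 h, between the lines (0.0637 with DESeq2, 0.0638 with its size factors, 0.00463 without TMM and 0.0041 with only the libraries compared). Leaving out 1 library also turned Acta2, between the lines, uninduced (-0.46 to 0.17), Tagln, between the lines, uninduced (-0.35 to 0.62), Thbs1, between the lines, uninduced (-0.48 to 0.16), Ankrd1, between the lines, uninduced (-0.55 to 0.16), Amotl2, between the lines, uninduced (-0.40 to 0.14), Thbs1, between the lines, 24 h (-0.87 to 0.32), Tagln, Activator 3 h against induced (-0.12 to 0.29), Acta2, Activator 24 h against 12 h (-0.52 to 0.27), Tagln, Activator 24 h against 12 h (-0.0873 to 0.13), Ankrd1, Control induced against uninduced (-0.36 to 0.051), Amotl2, Control induced against uninduced (-0.16 to 0.0826), Acta2, Control 3 h against induced (-0.000979 to 0.15), Tagln, Control 3 h against induced (-0.20 to 0.35), Thbs1, change from uninduced to 24 h, between the lines (-0.80 to 0.39) and Ankrd1, change from uninduced to 24 h, between the lines (-0.54 to 0.18). Mitochondrial scaling moved the median difference of all genes between the lines at 6 h from -0.18 to -0.91. The mitochondrial mRNAs took 2.42 to 3.60% of gene counts in MSR-dCas9-Activator and 1.71 to 2.07% in MSR-dCas9-Control at that time. The cause of these shifts was not tested. Depth limits Cnn1 and Myl9.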
